A study of Mus musculus with 30 samples.

Results

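The output genes of the circadian clock that were followed in the mouse cardiac ventricle are *Per1*, *Per2*, *Dbp*, *Tef* and *Nr1d2*. They were chosen by gene symbol, as the probes that the platform annotation or the study's gene tables name for 1 of these 5 symbols. Each symbol had 1 probe, which gives 5 of the 6467 named genes and 5 of the 17997 probes tested, and all 5 were above the background limit on each of the 30 arrays. Total RNA of cardiac ventricles was hybridized to 1-colour Illumina mouse whole-genome bead arrays. Control mice carried MCK-Cre alone, and Sox6 KO mice carried Sox6loxp/loxp together with MCK-Cre, so that both genotypes shared the Cre transgene. Both were sampled at P1, P7, P14, P30 and P60 (postnatal days), with 3 biological replicates for each of the 10 groups. The strain is labelled FVB/B6 hybrid, the methods give male mice, and limma p-values measure the spread between these samples. The muscle creatine kinase (MCK) promoter drives Cre in heart and skeletal muscle, so *Sox6*, a transcription factor gene, was targeted in muscle cells and not in the other cells of the ventricle. Activity of this promoter rises after birth, so that deletion can be less complete at the youngest ages. *Sox6* has no named probe in the tables used here, and the genotype labels were therefore not checked against it. The study itself reports reduced *Sox6* mRNA in Sox6 KO hearts by RT-qPCR. The hour of the day at which the hearts were collected is not stated in the labels or in the methods.

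The mammalian clock is a feedback loop of transcription that runs in nearly every cell, cardiomyocytes included. The activators CLOCK and BMAL1 bind E-box sequences and switch on *Per* and *Cry* genes, whose proteins return to the nucleus and repress the activators. The same activators drive the nuclear receptor genes *Nr1d1* and *Nr1d2* (REV-ERB alpha and beta), which repress genes carrying ROR elements, and the PAR bZIP genes *Dbp* and *Tef*, whose proteins activate genes through D-box sequences. The transcripts of all 5 genes are known to rise and fall over the day in adult mouse tissues, in phases that differ from gene to gene. *Per1* and *Per2* also respond directly to glucocorticoids and to cyclic AMP signalling.

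The factors of this loop are known to act at the start regions of clock genes, so the sequences with an E-box or a ROR element are shown here. RefSeq windows on build GRCm38.p6, which reach from 250 bases before to 50 bases after a start site, were found for 4 of the 5 genes, with 6 windows in all. Capitals mark the E-box CACGTG, the D-box TTATGTAA or TTATGCAA and the ROR element core AGGTCA, each searched on both strands. The windows shown are *Per1* at chr11:69098699-69098998 (plus strand), *Tef* at chr15:81802423-81802722 and chr15:81811164-81811463 (both plus strand), and *Nr1d2* at chr14:18239057-18239356 (minus strand).
Per1: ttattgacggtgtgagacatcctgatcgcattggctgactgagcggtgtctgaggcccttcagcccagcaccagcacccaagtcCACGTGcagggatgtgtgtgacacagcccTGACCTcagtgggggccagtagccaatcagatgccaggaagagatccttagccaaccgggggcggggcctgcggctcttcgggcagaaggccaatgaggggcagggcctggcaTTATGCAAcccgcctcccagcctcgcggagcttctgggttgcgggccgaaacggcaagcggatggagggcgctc
Tef, first start: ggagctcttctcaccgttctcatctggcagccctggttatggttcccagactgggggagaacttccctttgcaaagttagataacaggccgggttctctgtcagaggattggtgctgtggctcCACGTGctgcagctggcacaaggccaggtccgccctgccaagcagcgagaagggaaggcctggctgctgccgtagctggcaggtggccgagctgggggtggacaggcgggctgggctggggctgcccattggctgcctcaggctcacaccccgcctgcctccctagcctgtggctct
Tef, second start: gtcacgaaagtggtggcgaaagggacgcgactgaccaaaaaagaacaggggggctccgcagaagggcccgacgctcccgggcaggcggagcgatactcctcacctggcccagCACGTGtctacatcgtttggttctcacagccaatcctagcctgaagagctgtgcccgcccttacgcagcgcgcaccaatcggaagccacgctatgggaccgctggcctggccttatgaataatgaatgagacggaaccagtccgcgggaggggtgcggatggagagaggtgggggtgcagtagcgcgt
Nr1d2: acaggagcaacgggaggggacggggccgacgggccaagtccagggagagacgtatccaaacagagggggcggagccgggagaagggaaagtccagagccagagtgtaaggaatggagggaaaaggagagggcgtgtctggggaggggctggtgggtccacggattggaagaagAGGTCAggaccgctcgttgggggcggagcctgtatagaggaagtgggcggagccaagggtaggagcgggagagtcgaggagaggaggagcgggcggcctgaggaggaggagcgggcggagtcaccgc
The *Per1* window held an E-box that begins at base -166 from the start site, a ROR element core on the other strand at -137 and a D-box at -24. Each of the *Tef* windows held 1 E-box, at -127 and at -138, and the *Nr1d2* window held 1 ROR element core, at -77. None of the motifs overlapped another. A second *Per1* window (chr11:69099902-69100201) held the cyclic AMP response sequence TGACGTC, also searched on both strands, at -132, and the *Dbp* window (chr7:45704997-45705296) held none of these letters. Among all 32851 windows of the same length, 7.15% held the E-box, 1.66% a D-box, 16.26% the ROR element core and 3.21% TGACGTC. A match describes the letters of a window and was not tied to the array values.

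Sox6 KO was compared with control at each age to ask which clock genes differed between the genotypes. The hour of collection is not stated, so its part in a difference cannot be told apart from that of genotype. *Per1* and *Per2* were higher in Sox6 KO at P1, *Per1*, *Dbp* and *Tef* were higher at P30, and *Per2* and *Tef* were lower at P60. *Dbp* was lower in Sox6 KO at P1. No comparison of *Nr1d2* passed the test. In all, 8 of the 25 comparisons (5 genes at 5 ages) passed, 5 with the Sox6 KO higher and 3 with the Sox6 KO lower. The test was limma's moderated test on log2 quantile normalized signal, two-sided and adjusted by Benjamini-Hochberg over all 17997 probes, and a probe passed at an adjusted p under 0.01 with a change of at least 1.5-fold. Shares of all probes are given for passes in either direction. The 5 genes were chosen with earlier results of these data known, and they share the same arrays. The shares are therefore a reference and not a test of the 5 genes as a set. By gene count, 3 of 5 passed at P1, where 2.99% of all probes did. None of these 3 passed when the fit held only the 6 arrays of P1, where 44 probes passed in place of 539. None of 5 passed at P7 (1.34% of all probes) and none of 5 at P14 (0.806%). At P30 3 of 5 passed (1.49%), and at P60 2 of 5 passed (1.04%). The median change of the 5 genes in Sox6 KO was 0.29 (log2) at P1, -0.41 at P7 and -0.05 at P14. It was 0.83 at P30 and -0.48 at P60. At P1 and P14 this median lay between genes that moved in opposite directions. The median of all probes lay between -0.01 and 0.00 at every age. Quantile normalization gives all arrays the same distribution and so keeps it at that level. Values below are log2 normalized signal on single arrays, in the order of replicates 1 to 3.

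**Figure D1:**
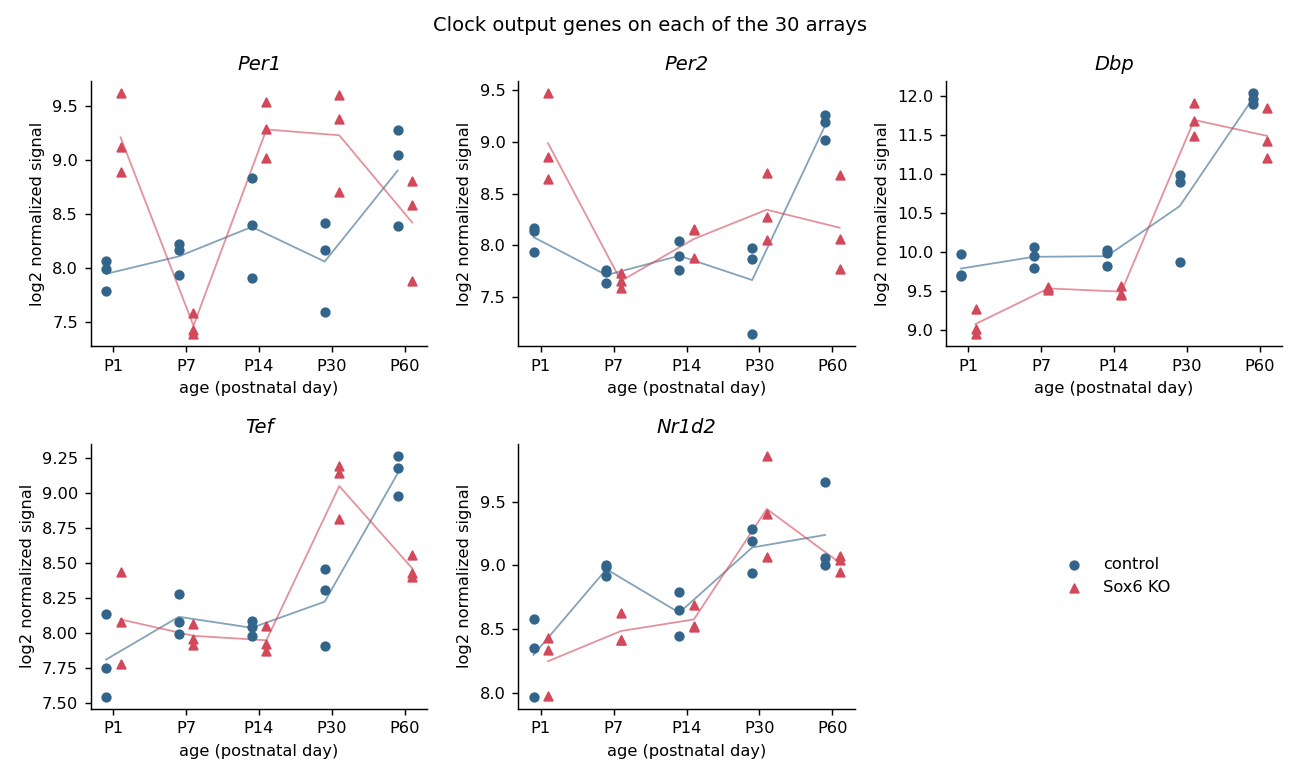
Log2 normalized signal of the 5 clock output genes (vertical axes) against age from P1 to P60 (horizontal axes). Each point is 1 array, circles are control and triangles are Sox6 KO, and lines join the group means. At P30 the Sox6 KO triangles of *Dbp* (11.49 to 11.91) lie above all control circles (9.87 to 10.99), and at P60 those of *Tef* (8.40 to 8.56) lie below all control circles (8.98 to 9.27).

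**Figure D2:**
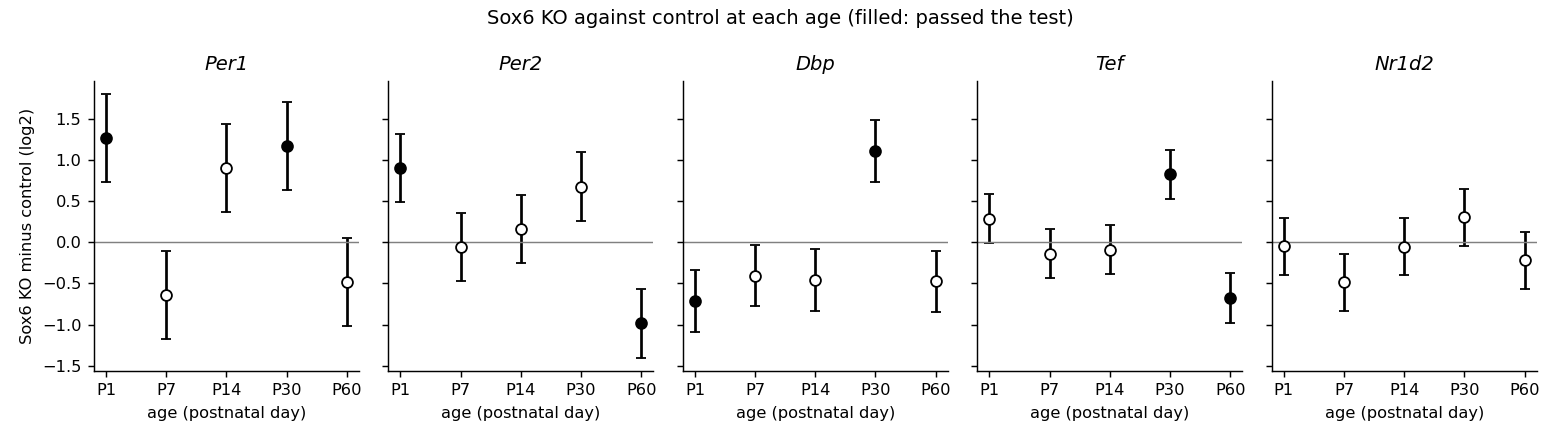
Difference between Sox6 KO and control (vertical axis, log2) at each age (horizontal axis), 1 panel per gene. Points are fitted differences of group means with 3 arrays each, bars are 95% confidence intervals, and filled points passed the test. *Per2* goes from 0.90 at P1 to -0.98 at P60, and *Dbp* from -0.71 at P1 to 1.11 at P30.

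*Per1* encodes a PERIOD protein, part of the complex that represses CLOCK and BMAL1. In control ventricles its signal was 7.78, 7.99 and 8.06 at P1, then 8.22, 8.17 and 7.93 at P7, 7.91, 8.40 and 8.83 at P14, 8.17, 7.59 and 8.42 at P30, and 8.39, 9.04 and 9.27 at P60. In Sox6 KO it was 9.12, 8.89 and 9.62 at P1, then 7.39, 7.43 and 7.58 at P7, 9.02, 9.54 and 9.29 at P14, 8.70, 9.38 and 9.60 at P30, and 7.88, 8.58 and 8.80 at P60. The genotypes did not overlap at the first 4 ages and overlapped at P60. All Sox6 KO arrays were above all control arrays at P1, P14 and P30, and all were below them at P7. *Per1* was 2.40-fold higher in Sox6 KO at P1 (log2 difference 1.27 ± 0.26 SE, limma adjusted p = 0.0012) and 2.25-fold higher at P30 (1.17 ± 0.26, adjusted p = 0.00443). At P14 the difference of 0.90 (adjusted p = 0.0592), at P7 that of -0.64 (adjusted p = 0.181) and at P60 that of -0.48 (adjusted p = 0.376) did not pass. The lowest group was the Sox6 KO at P7, with a mean of 7.46 ± 0.10 (SD, n = 3), and the next was the control at P1, with 7.94 ± 0.14. The highest was the Sox6 KO at P14, with 9.28 ± 0.26, and it did not differ beyond the spread from the Sox6 KO at P30 (9.23 ± 0.47) and P1 (9.21 ± 0.37).

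*Per2* encodes the partner PERIOD protein. Its control signal was 8.14, 7.93 and 8.17 at P1, then 7.76, 7.75 and 7.64 at P7, 7.76, 7.90 and 8.04 at P14, 7.87, 7.15 and 7.98 at P30, and 9.02, 9.26 and 9.19 at P60. Its Sox6 KO signal was 8.64, 8.85 and 9.47 at P1, then 7.66, 7.59 and 7.73 at P7, 7.88, 8.16 and 8.14 at P14, 8.06, 8.28 and 8.70 at P30, and 7.77, 8.06 and 8.67 at P60. The control group at P60 stood above every other control array, whereas the Sox6 KO group at P60 did not leave the range of the other Sox6 KO ages. *Per2* was 1.87-fold higher in Sox6 KO at P1 (0.90 ± 0.20 SE, limma adjusted p = 0.00274) and 1.98-fold lower at P60 (-0.98 ± 0.20, adjusted p = 0.00326). In both comparisons the arrays of the 2 genotypes did not overlap. At P30 the Sox6 KO arrays also lay above all controls, but the difference of 0.68 did not pass (adjusted p = 0.0408). The differences at P7 (-0.06) and P14 (0.16) were within the spread between arrays. By group mean, the control at P60 was highest (9.15 ± 0.12 SD, n = 3), followed by the Sox6 KO at P1 (8.98 ± 0.43), which overlapped it. The lowest were the Sox6 KO at P7 (7.66 ± 0.07), the control at P30 (7.67 ± 0.45) and the control at P7 (7.71 ± 0.07), whose arrays overlapped.

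*Dbp* encodes D-box binding protein, an activator under direct control of the clock. Of the 5 genes it had the largest change from P1 to P60 in both genotypes. Its control signal was 9.98, 9.68 and 9.69 at P1, then 10.07, 9.80 and 9.94 at P7, 10.03, 9.99 and 9.81 at P14, 10.99, 9.87 and 10.89 at P30, and 11.95, 11.89 and 12.04 at P60. Its Sox6 KO signal was 8.94, 9.27 and 9.01 at P1, then 9.54, 9.54 and 9.50 at P7, 9.45, 9.56 and 9.45 at P14, 11.68, 11.49 and 11.91 at P30, and 11.20, 11.42 and 11.84 at P60. The genotypes were apart at all 5 ages, with the Sox6 KO below the control at P1, P7, P14 and P60 and above it at P30. *Dbp* was 1.64-fold lower in Sox6 KO at P1 (-0.71 ± 0.18 SE, limma adjusted p = 0.00751) and 2.15-fold higher at P30 (1.11 ± 0.18, adjusted p = 0.000211). The differences of -0.41 at P7 (adjusted p = 0.248), -0.45 at P14 (adjusted p = 0.231) and -0.47 at P60 (adjusted p = 0.158) did not pass. In order of level, the 4 highest groups were the control at P60 (11.96 ± 0.07 SD, n = 3), the Sox6 KO at P30 (11.69 ± 0.21), the Sox6 KO at P60 (11.49 ± 0.33) and the control at P30 (10.58 ± 0.62). The Sox6 KO groups at P30 and P60 overlapped each other. The groups of P1 to P14 all lay between 9.07 and 9.94.

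*Tef* encodes thyrotroph embryonic factor, which shares the D-box site with DBP. Its control signal was 8.14, 7.54 and 7.75 at P1, then 8.08, 7.99 and 8.28 at P7, 8.09, 7.98 and 8.05 at P14, 8.46, 7.91 and 8.31 at P30, and 9.18, 8.98 and 9.27 at P60. Its Sox6 KO signal was 7.78, 8.44 and 8.08 at P1, then 7.96, 7.91 and 8.07 at P7, 7.92, 8.05 and 7.87 at P14, 9.19, 8.82 and 9.15 at P30, and 8.43, 8.56 and 8.40 at P60. The genotypes overlapped at P1, P7 and P14 and were apart at P30 and P60, in opposite directions. *Tef* was 1.77-fold higher in Sox6 KO at P30 (0.83 ± 0.15 SE, limma adjusted p = 0.00049) and 1.60-fold lower at P60 (-0.68 ± 0.15, adjusted p = 0.0045). The highest groups were the control at P60 (9.14 ± 0.15 SD, n = 3) and the Sox6 KO at P30 (9.05 ± 0.20), whose arrays overlapped. They were followed by the Sox6 KO at P60 (8.46 ± 0.08), and the 7 other groups had means between 7.81 and 8.22.

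*Nr1d2* encodes REV-ERB beta, a repressor that binds ROR elements. Its control signal was 8.58, 7.97 and 8.35 at P1, then 8.99, 8.92 and 9.01 at P7, 8.65, 8.45 and 8.79 at P14, 9.29, 8.94 and 9.19 at P30, and 9.65, 9.0 and 9.06 at P60. Its Sox6 KO signal was 7.98, 8.43 and 8.34 at P1, then 8.41, 8.41 and 8.63 at P7, 8.52, 8.69 and 8.53 at P14, 9.40, 9.07 and 9.86 at P30, and 9.07, 9.04 and 8.94 at P60. The genotypes overlapped at every age except P7, where the Sox6 KO arrays were all below the controls. None of its differences passed: the largest was -0.48 at P7 (95% confidence interval -0.83 to -0.14, limma adjusted p = 0.101), and the others were -0.05 at both P1 and P14, 0.30 at P30 and -0.22 by P60. The highest group mean was that of the Sox6 KO at P30 (9.44 ± 0.40 SD, n = 3), which overlapped the controls at P60 (9.24 ± 0.36) and at P30 (9.14 ± 0.18). The lowest were the Sox6 KO and the control at P1 (8.25 ± 0.24 and 8.30 ± 0.31), which also overlapped.

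The next question was whether the difference between Sox6 KO and control changed between ages, which separate calls do not show. That difference is called the effect of Sox6 KO below, whatever its cause. Between P30 and P60 the effect of Sox6 KO differed in 3 of 5 genes by the test of the difference itself, against 0.756% of all probes. In each of the 3 the Sox6 KO mean was above the control at P30 and below it at P60, and *Tef* alone passed at both ages. That difference of effects was -1.66 ± 0.29 (SE) for *Per2* (limma adjusted p = 0.00132), -1.58 ± 0.26 for *Dbp* (adjusted p = 0.00069) and -1.50 ± 0.21 for *Tef* (adjusted p = 0.000115). *Per1* had a difference as large, -1.65 ± 0.37, which did not pass (adjusted p = 0.0116). *Nr1d2* had -0.52 ± 0.24 (adjusted p = 0.318). Between P14 and P30 the difference passed for *Dbp* alone (1.56 ± 0.26, adjusted p = 0.00091, 1 of 5 genes against 0.628% of all probes). *Tef*, with 0.92, had an adjusted p of 0.0155. Between P1 and P7 it passed for *Per1* alone (-1.91 ± 0.37, adjusted p = 0.00305, 1 of 5 against 1.08%). Between P7 and P14 none of 5 passed (0.4% of all probes), and the largest was that of *Per1*, 1.55 with an adjusted p of 0.0348. Neighbouring differences share the arrays of an age, so they are not independent of each other. In the F test over all 4 differences, *Per1* (adjusted p = 0.000394), *Per2* (0.00034), *Dbp* (9.46e-05) and *Tef* (0.000178) were under 0.01, as were 6.21% of all probes, and *Nr1d2* was not (0.156).

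Single arrays bore on these values. Replicate 2 of the control group at P30 was the lowest of its group in 5 of 5 genes, with *Dbp* at 9.87 against 10.99 and 10.89 and *Per2* at 7.15 against 7.87 and 7.98. Without it, the P30 effect of Sox6 KO was 0.75 for *Dbp* (adjusted p = 0.00118) and 0.67 for *Tef* (adjusted p = 0.00884), both still past the threshold. That for *Per1* fell to 0.94 and no longer passed (adjusted p = 0.0516), and that for *Per2* was 0.42. The differences of effects between P30 and P60 were then -1.40 for *Per2*, -1.23 for *Dbp* and -1.34 for *Tef*, all with adjusted p under 0.01. Replicate 3 of the Sox6 KO at P1 was the highest of its group for *Per1* (9.62) and *Per2* (9.47). Without it, the P1 effects were 1.06 for *Per1* (adjusted p = 0.0147) and 0.66 for *Per2* (adjusted p = 0.0384), and neither passed. The difference of *Per1* effects between P1 and P7 was then -1.70 (adjusted p = 0.0128). Other calls were lost when any of several arrays was left out. Each such fit held fewer arrays, so a call near the threshold could be lost although its value grew. Without replicate 2 or 3 of the control, the P1 effect on *Dbp* was -0.76 in place of -0.71 (limma adjusted p = 0.0159 and 0.0169). The P1 effect on *Dbp* (-0.81 to -0.62 with 1 array left out) passed only when the array left out was replicate 2 of the Sox6 KO, and the P60 effect on *Tef* (-0.76 to -0.61) only when it was replicate 2 of the control. The P60 effect on *Per2* was -0.78 without replicate 1 of the Sox6 KO (adjusted p = 0.0381) and -0.93 without its replicate 2 (adjusted p = 0.0203). It was -0.93 without replicate 2 of the control (adjusted p = 0.0212) and -0.97 without its replicate 3 (adjusted p = 0.0165), so that 4 of its 6 values did not pass. The P30 effect on *Per1* also missed the threshold without replicate 1 of the control (1.22), replicate 2 of the Sox6 KO (1.09) or its replicate 3 (0.98).

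Age was compared within each genotype, over neighbouring ages, to follow the genes through postnatal growth. In control ventricles the rise came late: *Per2*, *Dbp* and *Tef* rose between P30 and P60, 3 of 5 genes where 3.03% of all probes passed. *Per2* rose 2.80-fold (1.49 ± 0.20 SE, limma adjusted p = 7.63e-06), *Dbp* 2.60-fold (1.38 ± 0.18, adjusted p = 4.66e-06) and *Tef* 1.89-fold (0.92 ± 0.15, adjusted p = 5.03e-05). *Per1* had a difference of 0.84 (adjusted p = 0.0208) and *Nr1d2* of 0.10 (adjusted p = 0.731). Between P14 and P30 1 of 5 passed (6.6% of all probes), *Dbp* with 0.64 (adjusted p = 0.0077), although its groups overlapped at replicate 2 of P30. That value was 1.00 without this array and 0.44 without replicate 1 of P30 (adjusted p = 0.0852), and it passed in only 1 of the 6 fits that left out 1 array. Between P1 and P7 *Nr1d2* alone rose (0.67, adjusted p = 0.00395, 1 of 5 against 5.08% of all probes). This call passed in only 1 of the 6 fits that left out 1 array, that without replicate 1 of P1, and was lost with median scaling (0.64, adjusted p = 0.0107). Between P7 and P14 none of 5 passed (3.27%). From P1 to P60 all 5 genes rose in control, where 20.7% of all probes passed: 4.52-fold for *Dbp*, 2.51-fold for *Tef*, 2.11-fold for *Per2*, 1.94-fold for *Per1* and 1.92-fold for *Nr1d2*.

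In Sox6 KO ventricles *Dbp*, *Tef* and *Nr1d2* rose between P14 and P30. These were 3 of 5 genes, against 8.4% of all probes. The control values over that interval were 0.64 for *Dbp*, 0.19 for *Tef* and 0.51 for *Nr1d2*, and the difference between genotypes passed for *Dbp* but not for *Tef* (0.92, adjusted p = 0.0155) or *Nr1d2* (0.35, adjusted p = 0.585). *Dbp* rose 4.61-fold (2.20 ± 0.18 SE, limma adjusted p = 3.52e-10), *Tef* 2.15-fold (1.10 ± 0.15, adjusted p = 1.07e-06) and *Nr1d2* 1.82-fold (0.87 ± 0.17, adjusted p = 0.000192). Between P30 and P60 *Tef* fell 1.5-fold (-0.59, adjusted p = 0.00571, 1 of 5 against 2.11%). That fall passed in only 1 of the 6 fits that left out 1 array, the fit without replicate 2 of P30, and was lost with median scaling (adjusted p = 0.0113) and with normexp (adjusted p = 0.0235). *Per1* had -0.81 (adjusted p = 0.0302), *Nr1d2* -0.42, *Dbp* -0.20 and *Per2* -0.17 over that interval, none of which passed. The PERIOD genes moved early instead. From P1 to P7 *Per1* fell 3.36-fold (-1.75, adjusted p = 9.68e-06) and *Per2* fell 2.50-fold (-1.32, adjusted p = 1.5e-05), 2 of 5 genes against 5.51% of all probes. *Per1* then rose 3.53-fold between P7 and P14 (1.82, adjusted p = 5.29e-06), 1 of 5 against 5.52%. From P1 to P60 *Dbp* rose 5.33-fold and *Nr1d2* rose 1.71-fold, while *Per2* fell 1.76-fold, so that 3 of 5 passed where 22.4% of all probes did. The P1 and P60 arrays of *Per2* in Sox6 KO overlapped, and its difference of -0.81 became -0.57 without replicate 3 of P1 (adjusted p = 0.0207) and -0.61 without replicate 1 of P60 (adjusted p = 0.018).

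The spread between arrays of 1 group was large in all 5 genes. The residual SD over the 30 arrays (20 degrees of freedom) was 0.36 for *Per1*, 0.28 for *Per2*, 0.25 for *Dbp*, 0.23 for *Nr1d2* and 0.20 for *Tef*, against a median of 0.11 over all 17997 probes. These values stood at the 99.6, 98.9, 98.3, 97.6 and 95.5 percentiles of all probes. Among probes of like signal level the 5 genes stood between the 94 and 99.4 percentiles. A large spread was not particular to them. The other clock genes *Bhlhe40* (0.23), *Nfil3* (0.23) and *Usp2* (0.22) stood at the 97.7, 97.6 and 97.2 percentiles of all probes. The remaining measured clock genes stood between 30.2 (*Gsk3b*) and 89.4 (*Csnk1d*). With normexp background correction, *Per1* and *Per2* stayed at the 99.2 and 98.7 percentiles, while *Dbp*, *Nr1d2* and *Tef* came to 70.3, 79.4 and 81.7. The spread was uneven between groups: the 3 *Dbp* arrays of the Sox6 KO at P7 lay within 9.50 to 9.54, and those of the control at P30 within 9.87 to 10.99. The part of the hour of collection in this spread and in the differences between groups was not tested.

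**Figure D3:**
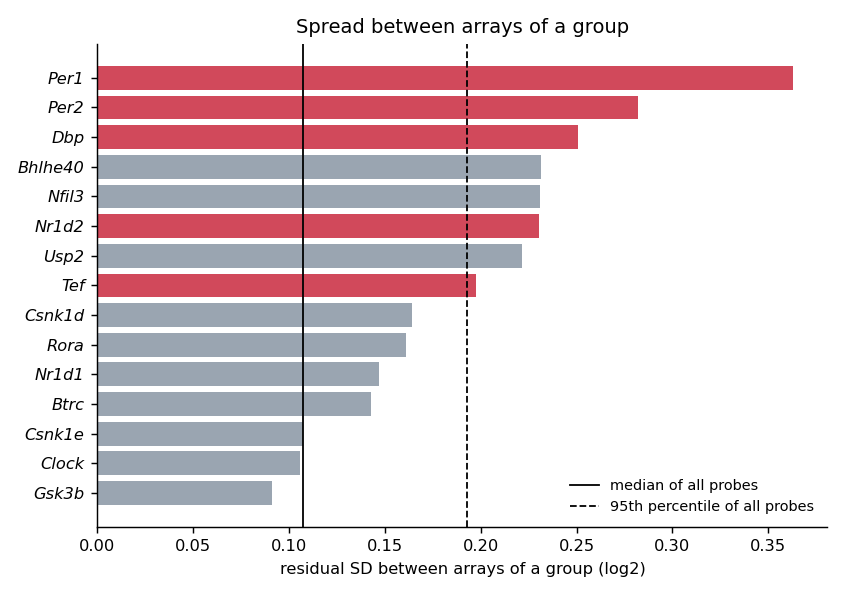
Residual SD between arrays of 1 group (horizontal axis, log2, 20 degrees of freedom) for the 15 measured clock genes, with the 5 clock output genes in red. The solid line is the median of all 17997 probes (0.11) and the dashed line their 95th percentile (0.19). The 5 red bars reach from 0.20 to 0.36, and the bars of *Bhlhe40*, *Nfil3* and *Usp2* also pass the dashed line.

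With the group means removed, the genes did not deviate as 1 block. *Per1* and *Per2* deviated together over the 30 arrays (Pearson r = 0.80, Spearman rho = 0.81, the same sign on 26 arrays). *Tef* and *Nr1d2* did so too (r = 0.71, rho = 0.73, the same sign on 24 arrays). *Dbp* stood between the pairs, with r = 0.65 to *Per2* (rho = 0.42) and r = 0.65 to *Tef* (rho = 0.63). *Per1* had r = -0.02 to *Tef* and r = -0.03 to *Nr1d2*. Without the 2 arrays farthest from the median, r was 0.76 for *Per1* with *Per2*, 0.67 for *Tef* with *Nr1d2*, 0.46 for *Per2* with *Dbp* and 0.53 for *Dbp* with *Tef*. These values are descriptions with no test, and the points of a gene pair share the array and its normalization.

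**Figure D4:**
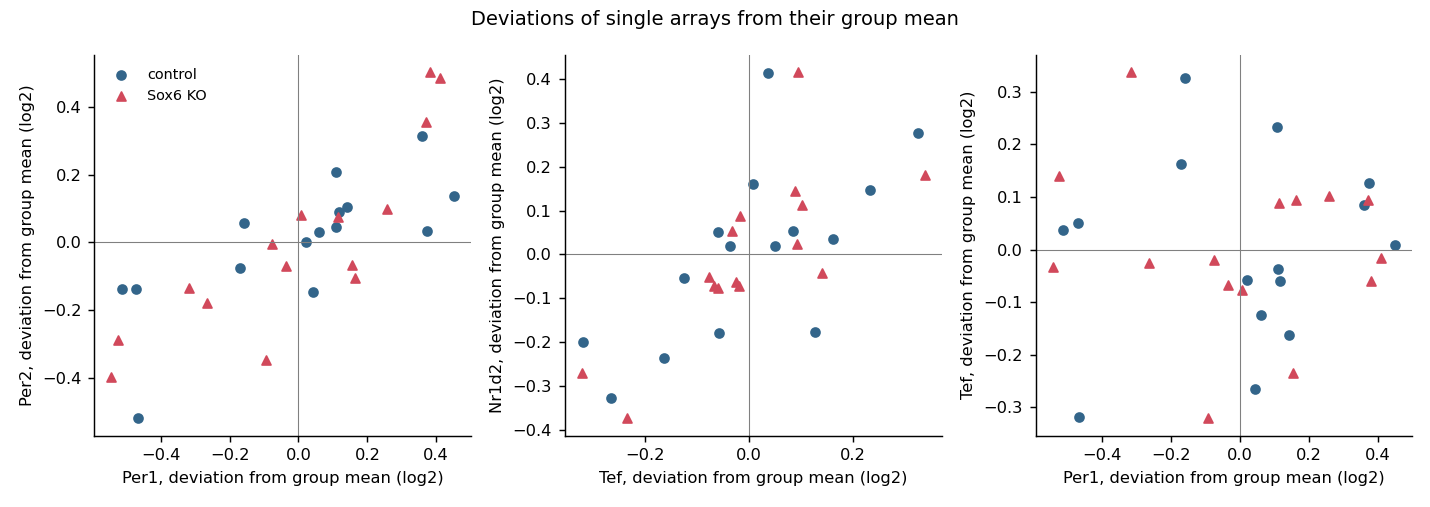
Deviation of each of the 30 arrays from its group mean (both axes, log2) for 3 gene pairs, with control as circles and Sox6 KO as triangles. *Per1* against *Per2* (r = 0.80) and *Tef* against *Nr1d2* (r = 0.71) follow a diagonal, and *Per1* against *Tef* (r = -0.02) shows no slope.

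Among the 6611 named probes of other genes, those that deviated most like each clock gene over the 30 arrays were read off as a description. For *Per1* they were *Cebpb* (r = 0.85), *Irs2* (0.79) and *Cars2* (0.75), and for *Per2* they were *Tra2b* (0.79), *Acer2* (0.76) and again *Cebpb* (0.76). For *Dbp* they were *Rhobtb1* (0.71), *Tagap* (0.71) and *Mcf2l* (0.70). For *Tef* they were *Nedd4l* (0.83), *Timm50* (0.78) and *Ccdc107* (0.78), and for *Nr1d2* they were *Abhd17c* (0.80), *Stag1* (0.80) and *Kpna1* (0.78). *Cebpb*, which encodes a bZIP transcription factor, appeared for both PERIOD genes, which themselves deviated together (r = 0.80). No reference level was computed for the highest of 6611 values. Negative values came near these in size, with -0.815 for *Tef* with *Ptp4a3* and -0.804 for *Nr1d2* with *Tbc1d17*. Over the 10 group means the closest profiles were *Adi1* (r = 0.98) and *Herpud1* (0.98) for *Dbp*, *Rhobtb1* (0.94) for *Tef*, *Ric8b* (0.96) and *Kcnip2* (0.96) for *Nr1d2*, *Gabpa* (0.90) for *Per2* and *Sirt1* (0.88) for *Per1*. *Kcnip2* encodes the KChIP2 subunit of the transient outward potassium channel.

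Of the 26 genes listed for the core loop, its outputs and its kinases and ubiquitin enzymes, 15 had a named probe, and 10 of these were genes other than the 5. *Clock*, which encodes the activator, passed in no Sox6 KO comparison: its control mean went from 9.15 at P1 to 9.66 at P14 and 9.10 at P60, and its Sox6 KO mean at P60 was 9.39 (difference 0.29, limma adjusted p = 0.0533). *Rora*, the activator that competes for ROR elements, passed in none of the 5 Sox6 KO comparisons either and rose 2.11-fold in control from P1 to P60. *Nr1d1*, the close relative of *Nr1d2*, was 8.08, 7.88 and 7.78 in control and 8.86, 8.55 and 8.59 in Sox6 KO at P60. There the Sox6 KO was 1.69-fold higher (0.76 ± 0.11 SE, adjusted p = 6e-05), the opposite direction to *Per2* and *Tef* at that age. In control, *Nr1d1* rose between P14 and P30 (1.04, adjusted p = 4.89e-08) and fell between P30 and P60 (-0.64, adjusted p = 0.000148), when *Per2*, *Dbp* and *Tef* rose.

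*Nfil3* encodes E4BP4, which represses the D-box sites that DBP and TEF activate. At P30 it was 8.87, 9.57 and 8.91 in control and 8.36, 8.21 and 8.36 in Sox6 KO. It was therefore lower where *Dbp* and *Tef* were higher, by 1.75-fold (-0.81 ± 0.17 SE, limma adjusted p = 0.00254). Replicate 2, the array lowest for *Dbp* and *Tef* among the P30 controls, was the highest for *Nfil3*, and without it the difference was -0.58 and did not pass (adjusted p = 0.0396). It was -0.76 without replicate 2 of the Sox6 KO (adjusted p = 0.0169). In control *Nfil3* fell between P30 and P60 (-0.69, adjusted p = 0.00394), where *Dbp* and *Tef* rose. Without replicate 2 of the P30 controls that fall was -0.47 and did not pass (adjusted p = 0.0534), and the difference from P14 to P30 in control passed instead (-0.67, adjusted p = 0.00311). In Sox6 KO it fell between P14 and P30 (-1.60, adjusted p = 2.68e-08), where *Dbp* and *Tef* rose in that genotype. At P60, where *Tef* was lower in Sox6 KO, the *Nfil3* mean was not higher (8.23 against 8.42 in control), and its difference did not pass. From P30 to P60 in Sox6 KO, where *Tef* fell, the *Nfil3* mean went from 8.31 to 8.23, which did not pass either. Over the deviations of the 30 arrays, *Nfil3* had r = -0.46 with *Dbp* (rho = -0.29) and r = -0.15 with *Tef*.

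*Bhlhe40*, which encodes the E-box repressor DEC1, was 11.20, 11.17 and 11.27 in Sox6 KO at P14 against 9.89, 10.13 and 10.52 in control, a difference of 1.03 (adjusted p = 0.000329). *Csnk1d*, the kinase that marks PERIOD proteins for degradation, was higher in Sox6 KO at P1 (0.67, adjusted p = 0.000396), with 9.23, 9.81 and 10.12 against 9.10, 9.0 and 9.05. Without replicate 3 of the Sox6 KO its difference was 0.47, under the 1.5-fold limit. *Csnk1e*, *Btrc*, *Gsk3b* and the deubiquitinase gene *Usp2* passed in none of the 5 Sox6 KO comparisons. *Usp2* had differences of 0.59 at P30 (adjusted p = 0.0242) and -0.37 at P60 (adjusted p = 0.237). Of these 10 genes, none passed at P7 and 1 passed at each of the other ages.

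**Figure D5:**
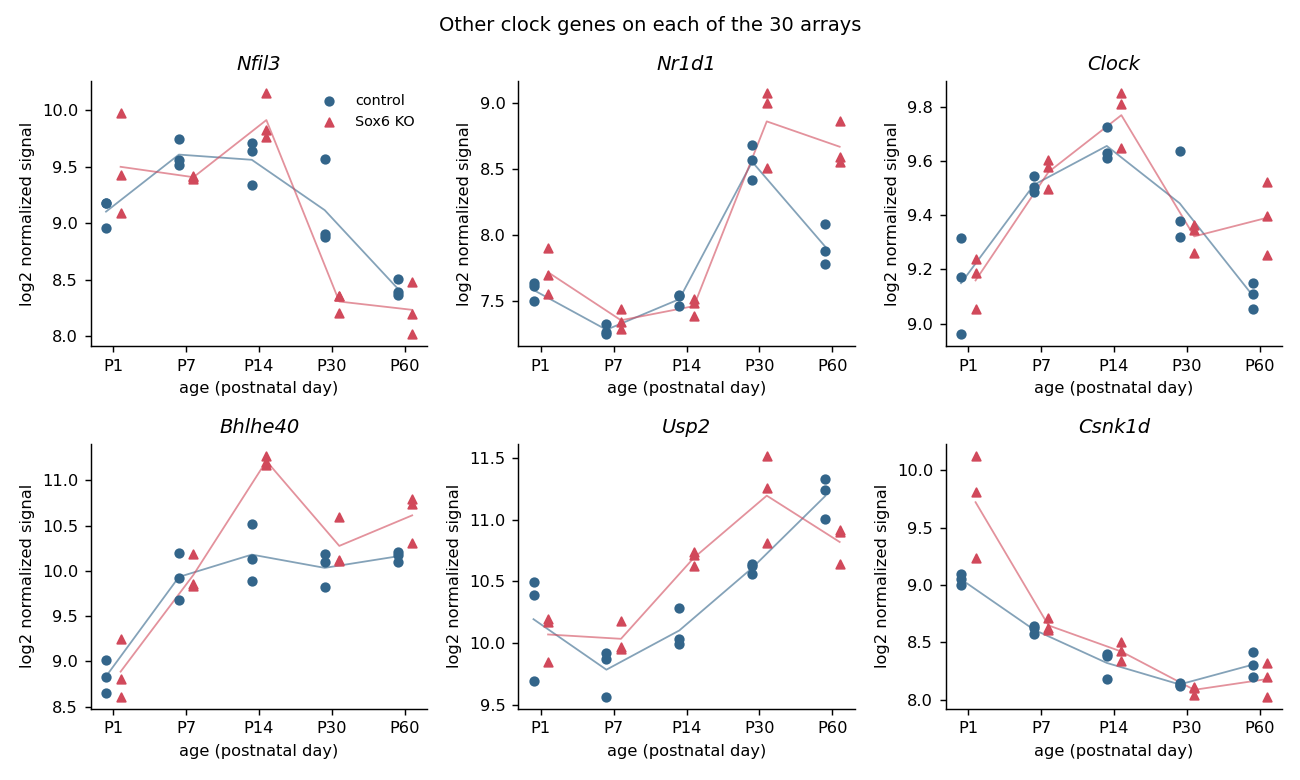
Log2 normalized signal (vertical axes) of 6 other clock genes against age (horizontal axes). Each point is 1 array, circles are control and triangles are Sox6 KO, and lines join the group means. At P30 the *Nfil3* triangles (8.21 to 8.36) lie below all control circles (8.87 to 9.57), and at P60 the *Nr1d1* triangles (8.55 to 8.86) lie above all control circles (7.78 to 8.08).

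Genes known to follow the clock or its inputs were read beside the 5. Of 8 measured genes reported to be under clock control in heart, 3 were lower in Sox6 KO at P1 and the same 3 were higher at P30. They were *Dgat2*, which makes triglyceride (-1.26 and 1.47), *Tcap*, which encodes the sarcomere protein telethonin (-0.90 and 1.05), and *Ucp3*, a mitochondrial carrier gene (-0.73 and 0.92). *Dbp* had -0.71 and 1.11 at these ages. The other clock output genes did not share this pattern at P1. *Per1* (1.27) and *Per2* (0.90) passed there in the opposite direction, and *Tef* (0.29) and *Nr1d2* (-0.05) did not pass. The values of *Dgat2*, *Tcap* and *Ucp3* were not read from a fit of the P1 arrays alone, so whether their P1 calls hold there is not known. None of the 8 passed at P60, where their median change was 0.0045, against -0.48 for the 5 genes. *Nampt*, the enzyme of NAD salvage, rose with *Per2*, *Dbp* and *Tef* in control between P30 and P60 (1.37, limma adjusted p = 7.56e-08). Of 7 measured genes that are rhythmic in many organs, 1 passed at P30, *Cirbp* (0.68, adjusted p = 0.000203), which encodes a cold-inducible RNA-binding protein and also rose in control between P30 and P60 (0.69). Among the other genes of that list, *Rbm3*, *Coq10b* and *Hsph1* passed in no Sox6 KO comparison.

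Of 11 measured glucocorticoid-responsive genes, 4 were higher and 1 lower in Sox6 KO at P1, the age at which *Per1* and *Per2* were higher. *Klf9*, a transcription factor gene, was higher by 1.37 (adjusted p = 5.18e-09), *Sgk1*, a kinase gene, by 1.10 (adjusted p = 9.24e-05) and *Cdkn1a*, a cell cycle inhibitor gene, by 0.64 (adjusted p = 7.25e-05). The others, *Ddit4* (1.20) and *Angptl4* (-2.53), are named because they complete the count, after their values were seen. The median of the 11 was 0.43 at P1 and 0.54 at P30, against -0.01 and 0.00 for all probes, a level that the normalization keeps. At P30 *Klf9* was higher (0.64) and *Cdkn1a* lower (-0.71), and *Mt1* passed in no Sox6 KO comparison. Of 7 measured immediate-early genes, *Egr1* was lower in Sox6 KO at P7 (-1.18) and at P14 (-1.60), *Zfp36* was higher at P30 (0.86) and *Ier3*, named for the same reason, was lower at P1 (-0.65). *Fos* and *Junb* passed in none. The values of these genes were not read from a fit of the P1 arrays alone, where 44 of all probes passed in place of 539. Whether their P1 calls hold there is not known. The part of these genes' signals in the clock gene differences was not tested.

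Cell type markers were read for the same arrays. The 7 measured cardiomyocyte markers had summed normalized signals of 147900 to 203800 over the 30 arrays. At P30, where *Per1*, *Dbp* and *Tef* were higher in Sox6 KO, 1 of 7 cardiomyocyte markers was higher (*Actc1*, 0.59), and their sum was 199500 to 203800 in Sox6 KO and 182700 to 190800 in control. The sum of the 3 macrophage markers was 2466 to 2651 against 3460 to 4511, with 1 of 3 lower, and that of the 5 endothelial markers was 2540 to 2842 against 3353 to 3705, with none of 5 passing. The sum of the 3 atrial markers was 9320 to 13500 against 5933 to 11600, with 1 of 3 higher (*Myl4*, 2.09). At P1 the atrial sum was 91160 to 96580 in Sox6 KO and 36460 to 85210 in control, with none of 3 passing, and at P60 it was 4603 to 5993 against 3124 to 6868. Also at P1, 1 of 7 cardiomyocyte markers (*Myh6*, -0.62) and 1 of 5 endothelial markers (*Cldn5*, -0.83) were lower in Sox6 KO, and none of 5 fibroblast or 3 macrophage markers passed. Of 4 erythroid markers, *Hbb-b1* was higher at P1 (0.60) and P60 (0.70) and *Hba-a1* was lower at P30 (-0.74). The erythroid sum in Sox6 KO and control was 83100 to 102900 against 81140 to 88870 at P1, 44490 to 59540 against 52410 to 79380 at P30, and 45340 to 67760 against 48290 to 62260 at P60. At P1 the 1 measured fat marker, *Cidea*, was 267.7 to 425.8 in Sox6 KO and 742.4 to 1030 in control (-1.38). The values of markers were not read from a fit of the P1 arrays alone, so whether their P1 calls hold there is not known. At P7 all 3 atrial markers were higher in Sox6 KO, with a sum of 8971 to 21540 against 4041 to 4726 in control. There 1 of 5 endothelial markers was lower and 1 of 4 erythroid markers higher, and no cardiomyocyte, fibroblast or macrophage marker passed. No defining marker of skeletal muscle carries a name here. The part of these markers in the clock gene differences was not tested, and in whole ventricle a lower signal from fewer cells of a type cannot be told apart from less RNA per cell. Between 13997 and 17954 of all 45281 probes were above the limit on an array, and arrays of 1 group correlated at 0.983 to 0.996.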

How the data were processed

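The authors exported signal intensities from the scanner files with IlluminaExpressionFileCreator, and the deposited intensity table is linear, not normalized between arrays, with 46255 rows (936 negative controls, identified by their range of IDs, and 38 other controls) and no detection p-values. Its version and background setting are not stated. The methods also speak of hybridization in triplicate for each biological replicate; each array was counted as 1 animal sample, as labelled. A second deposited intensity table of 6784 probes, filtered and quantile normalized by the authors, served as an alternative.

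The background limit of an array was 2 SD over the mean of its negative controls, and 17997 of 45281 probes, those that exceeded it throughout 1 or more groups, were kept, log2 transformed and quantile normalized. A limma model (version 3.58.1, R 4.3.3) with 1 mean per group was fitted to all 30 arrays (20 residual and 6.71 prior degrees of freedom), and p-values were adjusted by Benjamini-Hochberg over all tested probes. In simulated data for Sox6 KO against control at P30 on 17997 probes, 98% of 100 probes changed 2-fold passed. Of 100 probes changed 1.5-fold, 49% passed, and 0 unchanged probes did. These rates were not computed for the clock output genes. The residual SD of those genes was 0.20 (*Tef*) to 0.36 (*Per1*), against a median of 0.11 over all probes. The rates therefore do not show that a clock output gene that did not pass was unchanged. Gene names came from the platform annotation, with 6074 probes of 1 symbol and 3 of several, which were not named, and then from the study's gene tables.

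The genes, lists and tests were chosen with earlier results of these data known. All 5 genes were named, with every measured gene of the core clock, PAR bZIP and kinase lists, up to 4 of each other list (those passing in the most comparisons, ties by mean absolute change), the 3 most alike probes, and genes needed to complete a small count. Where a gene had several probes, that of the study's tables, or otherwise the brightest, was used. The alternatives were median scaling, normexp with offset 16, both other filters, the authors' table, only the compared groups, each array left out, the replicate number as a block, and a looser threshold.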

Additional observations from a re-analysis of the deposited data

Results flagged for a closer look

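The effect of Sox6 KO differed between neighbouring ages, by the test of that difference in the limma fit across all probes, for 5 results of the clock output genes and 1 of a partner gene. *Per1* had a difference of effects of -1.91 from P1 to P7 (adjusted p = 0.00305). *Dbp* had 1.56 from P14 to P30 (adjusted p = 0.00091) and -1.58 from P30 to P60 (adjusted p = 0.00069). *Per2* had -1.66 (adjusted p = 0.00132) and *Tef* -1.50 (adjusted p = 0.000115) from P30 to P60. *Nfil3* had -1.16 from P14 to P30 (adjusted p = 0.00769), opposite in sign to *Dbp*, and without replicate 2 of the control group at P30 its value was -0.93 and did not pass (adjusted p = 0.0293). With 3 arrays in each group, no single array was tested as an outlier.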

How the results depend on the processing

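Of 33 results of the 5 genes that passed the test, none changed sign under the 8 alternatives other than leaving out single arrays. All 33 also passed with the authors' processed table and with only probes above the limit on all arrays. At an adjusted p under 0.05 none of the 33 could be lost, since each was already under 0.01. That looser threshold and the replicate block could not have changed a sign either. With median scaling 29 passed. The exceptions were 0.61 for *Dbp* from P14 to P30 and 0.64 for *Nr1d2* from P1 to P7 in control, and -0.63 for *Tef* from P30 to P60 and 0.45 for *Nr1d2* from P1 to P60 in Sox6 KO. This scaling shifted the median of all probes by 0.15 in control and 0.14 in Sox6 KO from P1 to P60. With normexp 28 passed, and it raised the count of all probes at P30 from 268 to 519. The Sox6 KO effects on *Per2* were then 1.21 at P1 and -1.32 at P60, that on *Tef* was -0.86 at P60, *Dbp* had 0.68 from P14 to P30 in control and *Tef* -0.75 from P30 to P60 in Sox6 KO. With no filter 30 passed, since adjustment ran over 45281 probes, and 1.17 for *Per1* at P30, -0.71 for *Dbp* at P1 and 0.64 for *Dbp* from P14 to P30 did not. With only the compared groups in the fit, which leaves fewer arrays, 25 passed, and the count of all probes at P1 fell from 539 to 44. The values that did not were 1.27 for *Per1*, 0.90 for *Per2* and -0.71 for *Dbp* at P1, 1.11 for *Dbp* at P30, 0.67 for *Nr1d2* from P1 to P7 and 0.64 for *Dbp* from P14 to P30 in control, -0.81 for *Per2* from P1 to P60 in Sox6 KO, and -1.58 for the *Dbp* effect from P30 to P60. For the other settings the cause was not tested.

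With 1 array left out, 21 of 33 passed whichever array it was. The other 12 lost the call with some array. Effects of Sox6 KO ranged from 1.06 to 1.42 for *Per1* at P1 and 0.94 to 1.43 at P30, 0.66 to 1.08 for *Per2* at P1 and -1.23 to -0.78 at P60, -0.81 to -0.62 for *Dbp* at P1 and -0.76 to -0.61 for *Tef* at P60. The *Per1* effect from P1 to P7 ranged from -2.07 to -1.70. In control, *Dbp* from P14 to P30 ranged from 0.44 to 1.00, *Nr1d2* from P1 to P7 from 0.51 to 0.81 and *Per1* from P1 to P60 from 0.77 to 1.21. In Sox6 KO, *Tef* from P30 to P60 ranged from -0.70 to -0.52 and *Per2* from P1 to P60 from -1.06 to -0.57.

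Groups share replicate numbers, but the deviations of same-numbered arrays correlated at -0.231 to 0.106, with 1 of 15 pairs over 0.1 and 3 that correlated best with their own number, so the numbers were not taken as pairs. With the replicate number as a block, 33 of 33 passed, with 5 further results past the threshold. Every group holds the same replicate numbers, so the block could not change the size of any effect. A signal near the background limit (103.1 to 139.1 intensity units) limits small changes.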
